A study of Homo sapiens with 4 samples.

Results

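Integrin subunits were followed through ribosome footprints of the human melanocyte line Hermes 4B, which is immortalised and derived from skin. The 10 subunits ITGA1, ITGA2, ITGA3, ITGA4, ITGA5, ITGA6, ITGAV, ITGB1, ITGB3 and ITGB5 were taken by gene name, with coding-sequence reads summed over the transcripts of each name, from 14355 gene names in all. Cells of wild-type genotype received either a control siRNA or an siRNA against CDH3-AS1, an RNA antisense to the P-cadherin gene CDH3, at 25 to 50 nM. The series asks how that RNA acts on P-cadherin. Each siRNA had 1 library in batch 1 and 1 in batch 2, numbered replicate 1 and 2 after the batch. The cells of all 4 libraries grew in serum-containing medium with TPA, endothelin-1, cholera toxin and stem cell factor. Cycloheximide at 100 µg/mL kept ribosomes in place at harvest. All libraries come from the same cell line, and the labels do not say whether the replicates were separate cultures. The p-values therefore reflect the spread among these 4 samples alone, pooled in part over genes, and that spread may be technical.

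Integrins are cell-surface receptors made of an alpha and a beta subunit, and the pair decides which matrix protein the cell grips. ITGB1 pairs with most alpha subunits: with ITGA1 or ITGA2 it binds collagen, with ITGA3 or ITGA6 laminin, with ITGA5 fibronectin, and with ITGA4 fibronectin and VCAM1. ITGAV pairs with ITGB1, ITGB3, ITGB5 or ITGB8 and binds vitronectin and other ligands that carry an RGD motif. Melanocytes sit on a laminin-rich basement membrane, and the pair of ITGAV and ITGB3 is known from invasive melanoma.

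Control siRNA libraries had totals of 2034854 (replicate 1) and 5994485 reads (replicate 2), and CDH3-AS1 siRNA libraries of 6759850 and 2858835. Levels are given as CPM, a gene's coding-sequence reads scaled to the coding-sequence total of its library, and 3 reads, the limit that a count of 0 allows, came to 0.473 to 1.63 CPM. Of 15 melanocyte markers 14 or 15 had reads in each library, with summed levels of 22332 to 41555 CPM. Control siRNA replicate 1 stood apart: 26 of 29 skeletal muscle markers had reads there, 4950 CPM in sum, against 13 to 45.7 CPM in the other libraries, where CKM, TNNC2 and MB had 0 reads. Of 10 fibroblast markers 6 had reads there, 511 CPM in sum, against at most 5.51 CPM elsewhere, where CDH3-AS1 siRNA replicate 1 had reads of 7. Most of the 511 CPM was COL1A1 (379 CPM) and COL1A2 (111 CPM), while DCN and PDGFRA had 0 reads in that library. COL3A1 was not among the gene names. CDH3 was lower with CDH3-AS1 siRNA in both batches, by a log2 fold change of -0.68 and -0.69. CDH3-AS1 itself was not analysed here, which leaves the knockdown without a check.

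The 250 bases before the RefSeq start of ITGA5, the subunit with the clearest siRNA difference below, and of its partner ITGB1, whose batches went opposite ways, are shown for reference. Both are on GRCh38.p14 and on the minus strand, ITGA5 at chr12:54419267-54419516 and ITGB1 at chr10:32958231-32958480. Capitals mark matches, on either strand, to GGGCGG, the GC box of SP1, and to GGAATG, the element of the TEAD factors.
ITGA5: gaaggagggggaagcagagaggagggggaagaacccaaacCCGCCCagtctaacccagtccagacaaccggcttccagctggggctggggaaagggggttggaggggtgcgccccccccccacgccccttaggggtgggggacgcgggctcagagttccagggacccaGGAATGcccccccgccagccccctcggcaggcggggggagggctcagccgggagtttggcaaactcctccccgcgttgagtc
ITGB1: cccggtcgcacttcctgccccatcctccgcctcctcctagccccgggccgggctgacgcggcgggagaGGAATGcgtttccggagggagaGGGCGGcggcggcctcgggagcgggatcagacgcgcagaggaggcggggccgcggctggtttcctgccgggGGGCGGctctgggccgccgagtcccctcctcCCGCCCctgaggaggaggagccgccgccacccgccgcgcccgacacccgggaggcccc
The ITGA5 stretch held 1 GC box and 1 TEAD element, and the ITGB1 stretch held 3 and 1. Of 27305 such stretches in the RefSeq table, 42.3% held the first motif and 11.9% the second. Also searched, and not in either stretch, were the CCAAT box (in 33% of all stretches), TATAAA for the TATA box (11.1%), TGACTCA, the TPA response element (4.16%), and the MITF elements CACGTG (6.49%) and CATGTG (9.54%). None of these motifs contains another. The stretches were 70% and 78.4% G and C, against a median of 58%. These matches are letters in a window and show no binding. Footprints measure ribosomes on RNA and not promoter activity.

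By mean footprint density per length in the controls, ITGB1 and the laminin receptor subunit ITGA3 stood at the top. By library, ITGB1 ranked 3 of the 10 in both batch 1 libraries and 1 in both batch 2 libraries. Density is given as RPKM, which divides the scaled coding-sequence reads by length in kilobases, with the length of the transcript that took most of the gene's reads. In the controls ITGB1 averaged 364 ± 300 RPKM (SD, n = 2) and ITGA3 343 ± 38.3, which do not differ beyond their spread. ITGA5 followed at 147 ± 28.8 and ITGB5 at 134 ± 12.4, also within each other's spread. ITGA6 stood at 84.1 ± 49.7, ITGB3 at 53.9 ± 0.881 and ITGAV at 48 ± 37.7, and the last pair did not separate. The lowest were ITGA1 at 18.1 ± 11.3, ITGA4 at 11.5 ± 10.1 and the collagen receptor subunit ITGA2 at 8.56 ± 1.07. By library, ITGA1 with 10.1 and 26.1 RPKM lay above ITGA2 with 7.81 and 9.32, while ITGA4 with 4.38 and 18.7 overlapped both. With CDH3-AS1 siRNA the means at the top were 395 ± 26.3 RPKM for ITGA3 (SD, n = 2), 368 ± 18.9 for ITGA5 and 330 ± 131 for ITGB1. These were within each other's spread.

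**Figure D1:**
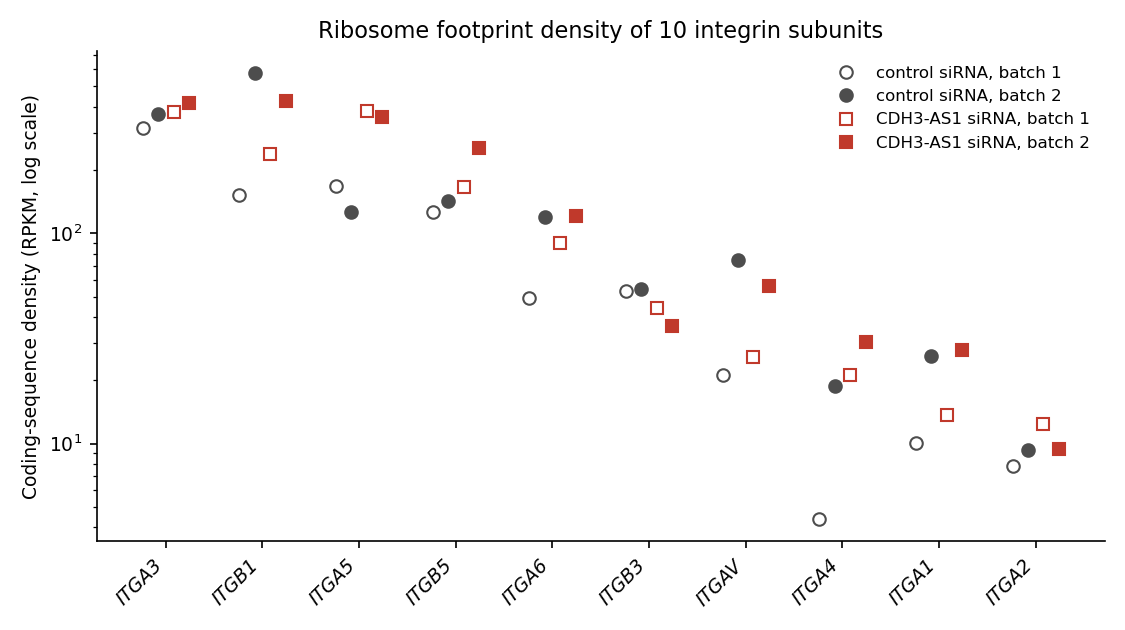
Coding-sequence footprint density (RPKM, log axis) of the 10 subunits, ordered by their median, with 1 point per library. ITGA5 stands at 126 and 167 RPKM in the control libraries and at 355 and 382 RPKM with CDH3-AS1 siRNA, while ITGB1 spreads from 152 to 577 RPKM mainly by batch.

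ITGA5, which with ITGB1 forms the main fibronectin receptor, was higher with CDH3-AS1 siRNA in both batches. It had 526 and 398 CPM in control siRNA replicates 1 and 2, and 1202 and 1118 CPM in CDH3-AS1 siRNA replicates 1 and 2. Both control libraries lay below both CDH3-AS1 siRNA libraries. The log2 fold change was 1.22 within batch 1 and 1.54 within batch 2. The library with muscle markers is the batch 1 control, and the 1.54 of batch 2 was measured without it. Its part in the batch 1 value was not tested. Without a batch term the estimate, 1.37 (SE 0.34), missed the threshold of edgeR's quasi-likelihood test over 10469 genes (adjusted p = 1). With the replicate block, which pairs the libraries of a batch, it was 1.38 (SE 0.22) and passed (adjusted p = 6.32e-07). DESeq2 with the block gave 1.40 (SE 0.25, adjusted p = 5.07e-05), and limma with the block on log2(RPKM + 1) gave 1.33 (SE 0.29, adjusted p = 0.205). All 13760 coding-sequence reads of ITGA5 lay on its single listed transcript, so its value did not depend on how reads were shared among transcripts. The gene lies on chromosome 12 at 54395261 to 54419266 (GRCh38.p14). Footprint counts do not separate more RNA per cell from more cells that make it, and no RNA-seq was analysed here, so density is not translational efficiency.

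ITGA4, the VCAM1 and fibronectin receptor subunit, was also higher in both batches, from a low level. It had 13.6 CPM in control siRNA replicate 1, from 25 reads, and 57.9 CPM in control siRNA replicate 2. With CDH3-AS1 siRNA it had 65.7 and 93.9 CPM. The groups did not overlap, but control siRNA replicate 1 alone was far below the rest. The difference was 2.27 (log2) within batch 1 and 0.74 within batch 2, against that library and without it. The log2 fold change was 1.15 (SE 0.63, adjusted p = 1) without and 1.38 (SE 0.31, adjusted p = 0.00147) with the block by edgeR. That SE of 0.31 draws on the spread of all tested genes and does not measure how far 2.27 and 0.74 agree. DESeq2 with the block did not call it (1.47, SE 0.44, adjusted p = 0.0936), nor did limma with the block on log2(RPKM + 1) (1.36, SE 0.37, adjusted p = 0.27). Leaving out single libraries moved it from 0.52 without control siRNA replicate 1 to 2.57 without control siRNA replicate 2. For CDH3-AS1 siRNA it was 1.41 with replicate 1 left out and 0.86 with replicate 2 left out. Control siRNA replicate 1 is the library with muscle markers and most COL1A1 and COL1A2 reads, and the part of that RNA in this value was not tested.

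ITGA5 and ITGA4 were the only members called by edgeR with the block. These were 2 of 10, against 1.62% of all tested genes in either direction and 0.927% called higher. The members were chosen with earlier results of these data known, so this share may reflect the choice. The 10 members all passed the filter on low counts. Without the block edgeR's quasi-likelihood test called 0 of 10 members, against 0% of all genes. At an unadjusted p under 0.05 it had 1 member, ITGA5, and 225 genes. DESeq2 without the block called 0 members and 2 genes, and limma on log2(RPKM + 1) called 0 of either. The median log2 fold change of the members was 0.30, with 0.57 in batch 1 and 0.11 in batch 2, against -0.03 over all genes. Among fits that each left out 1 library, it was 0.02 when control siRNA replicate 1 was missing and 1.05 when control siRNA replicate 2 was. For CDH3-AS1 siRNA, the values were 0.45 when replicate 1 was missing and 0.13 when replicate 2 was. By direction, 7 members were higher in both batches, 1 was lower in both and 2 went opposite ways. Of all 10469 genes, 2771 were higher in both batches, 2914 lower in both and 4779 opposite.

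**Figure D2:**
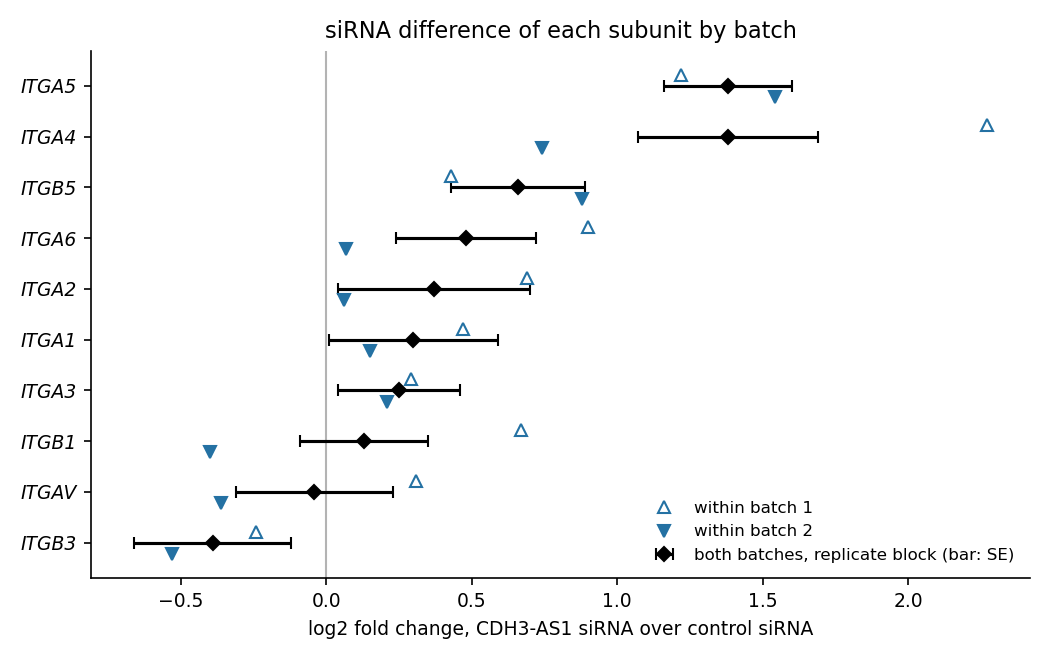
log2 fold change of each subunit, CDH3-AS1 siRNA over control siRNA. Diamonds are the edgeR estimates with the replicate block (bars, SE) and triangles the values within batch 1 and batch 2. ITGA5 lies at 1.22 and 1.54 in the batches, ITGA4 at 2.27 and 0.74, and ITGB1 and ITGAV have a batch on each side of 0.

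Among the beta subunits, ITGB5, the vitronectin receptor partner of ITGAV, had 301 and 343 CPM in the controls and 397 and 609 CPM with CDH3-AS1 siRNA. The groups did not overlap, and the log2 fold change was 0.69 (SE 0.37) without and 0.66 (SE 0.23) with the block (edgeR adjusted p = 0.163), short of the threshold. It was 0.33 without CDH3-AS1 siRNA replicate 2. ITGB3, the other main partner of ITGAV, had 125 and 128 CPM in the controls and 103 and 85.1 CPM with CDH3-AS1 siRNA. Here the CDH3-AS1 siRNA libraries lay below the controls, with a log2 fold change of -0.38 (SE 0.31, adjusted p = 1) and of -0.39 (SE 0.27, adjusted p = 0.721) with the block. The density of ITGB5 over that of ITGB3 was 2.36 and 2.62 in the controls, and 3.75 and 6.99 with CDH3-AS1 siRNA. These ratios do not overlap between the siRNAs, but with 2 libraries against 2 an exact permutation test cannot give a two-sided p below 0.333.

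ITGB1, the shared beta subunit, differed more by batch than by siRNA. It had 363 and 1374 CPM in control siRNA replicates 1 and 2, and 564 and 1007 CPM in CDH3-AS1 siRNA replicates 1 and 2. The controls enclosed both CDH3-AS1 siRNA libraries. The log2 fold change was 0.67 in batch 1 and -0.40 in batch 2, and 0.13 (SE 0.22, adjusted p = 0.944) with the block. ITGAV behaved likewise, with 66.8 and 234 CPM in the controls and 81.1 and 176 CPM with CDH3-AS1 siRNA. Its log2 fold change was 0.31 in batch 1, -0.36 in batch 2 and -0.04 (SE 0.27, adjusted p = 0.99) with the block in edgeR's quasi-likelihood test.

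The laminin and collagen receptor subunits were not called either. ITGA3 had 998 and 1169 CPM in the controls and 1188 and 1306 CPM with CDH3-AS1 siRNA. The difference was 0.25 on the log2 scale without the block (SE 0.32), with 0.29 and 0.21 within batches. ITGA6 had 144 and 350 CPM in the controls and 263 and 354 CPM with CDH3-AS1 siRNA, where control siRNA replicate 1 was the low library. ITGA2 had 27.7 and 33 CPM against 43.9 and 33.3 CPM, so control siRNA replicate 2 and CDH3-AS1 siRNA replicate 2 were nearly equal. ITGA1 had 35.8 and 92.4 CPM against 48.5 and 99.2 CPM and overlapped. With the block none of these 4 passed in edgeR, where ITGA6 had the lowest adjusted p (0.511, log2 fold change 0.48, SE 0.24). Counting all members, 5 (ITGA2, ITGA3, ITGA4, ITGA5 and ITGB5) had both CDH3-AS1 siRNA libraries above both controls and 1 (ITGB3) had both below. The same held for 11.2% and 16.1% of all tested genes.

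The make-up of the alpha subunits differed accordingly. ITGA5 took 29% and 17% of the summed density of the 7 alpha subunits in the controls, and 41.4% and 35% with CDH3-AS1 siRNA. The laminin receptor subunits ITGA3 and ITGA6 together took 63.4% and 65.7% in the controls and 50.6% and 52.7% with CDH3-AS1 siRNA. Both shares are parts of 1 total, so a higher ITGA5 share by itself lowers the laminin share. The densities of ITGA3 and ITGA6 were not lower with CDH3-AS1 siRNA in either batch: ITGA3 had 316 and 370 RPKM in the controls and 377 and 414 with CDH3-AS1 siRNA, and ITGA6 had 49 and 119 against 89.7 and 121. Per length, ITGA5 had 0.529 and 0.341 times the density of ITGA3 in the controls and 1.01 and 0.858 times with CDH3-AS1 siRNA, a ratio within each library that no library scaling can change. These ratios were computed after the ITGA5 values were seen. The density of ITGA1 to ITGA6 together was 3.64 and 1.16 times that of ITGB1 in the controls and 3.78 and 2.26 times with CDH3-AS1 siRNA. Control siRNA replicate 2, with its high ITGB1, was the low library. ITGAV had less density than the sum of ITGB3, ITGB5 and ITGB8 in every library, at 0.0753 to 0.225 times that sum, but in batch 2 it exceeded ITGB3 alone under both siRNAs (74.6 against 54.5 RPKM in the control and 56.2 against 36.3 with CDH3-AS1 siRNA).

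**Figure D3:**
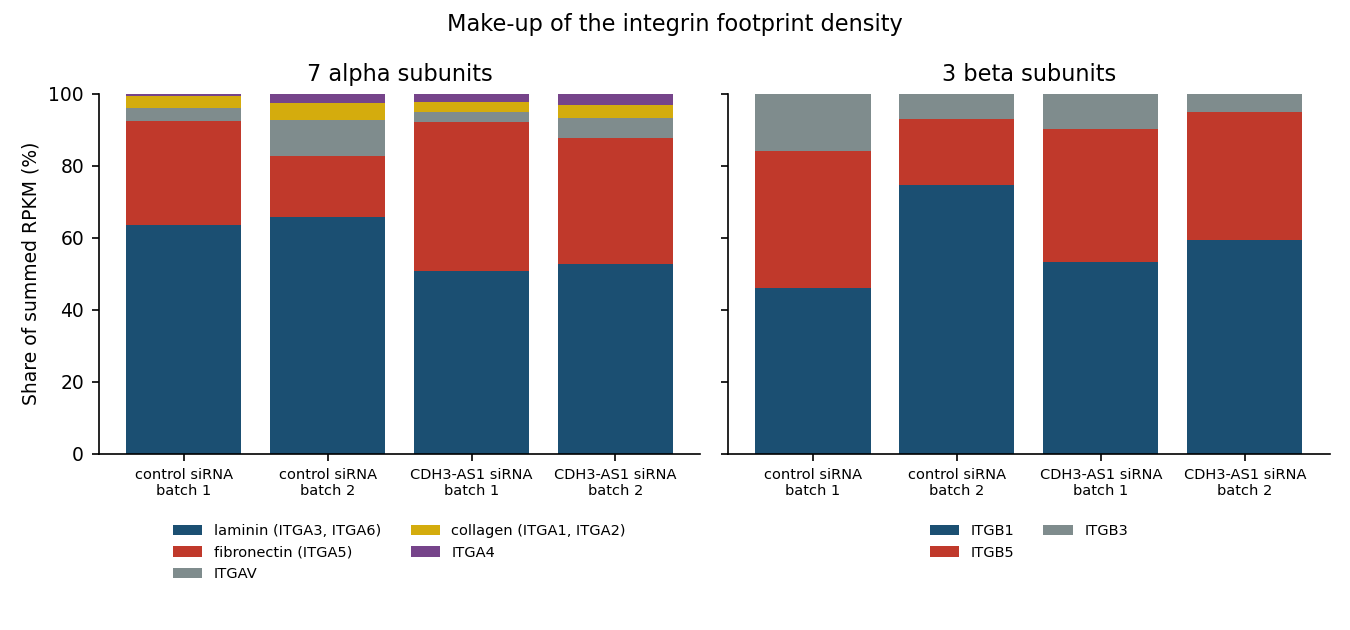
Share (%) of the summed coding-sequence density (RPKM) taken by each subunit class in each library, for the 7 alpha subunits (left) and the 3 beta subunits (right). ITGA5 takes 29% and 17% of the alpha density in the controls and 41.4% and 35% with CDH3-AS1 siRNA, and ITGB1 takes 46% to 74.5% of the beta density.

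More members were called between the batches than between the siRNAs, as held for all tested genes. With the block, 2 members and 1.62% of all genes were called between the siRNAs. With the siRNA as covariate, edgeR's quasi-likelihood test called 5 of 10 members higher in batch 2 and 0 lower, against 15.8% of all genes in either direction and 9.52% higher. ITGAV had a log2 fold change of 1.47 (SE 0.27, adjusted p = 1.77e-06), ITGB1 of 1.40 (SE 0.23, adjusted p = 4.61e-08) and ITGA1 of 1.21 (SE 0.29, adjusted p = 6.2e-04). ITGA4 stood at 1.18 (SE 0.31, adjusted p = 0.00198) and ITGA6 at 0.87 (SE 0.25, adjusted p = 0.00503). Without the siRNA term 3 members passed, ITGAV, ITGA1 and ITGB1. In the control libraries alone, where batch 1 is the library with muscle markers, the differences of the 5 ran from 1.30 (ITGA6) to 2.07 (ITGA4). Between the CDH3-AS1 siRNA libraries they were 1.15 for ITGAV, 1.06 for ITGA1, 0.87 for ITGB1, 0.55 for ITGA4 and 0.46 for ITGA6. All 5 were thus higher in batch 2 under each siRNA, and by less without control siRNA replicate 1. ITGA5 (-0.23, SE 0.22), ITGA3 (0.21, SE 0.21) and ITGB3 (-0.10, SE 0.27) did not pass.

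**Figure D4:**
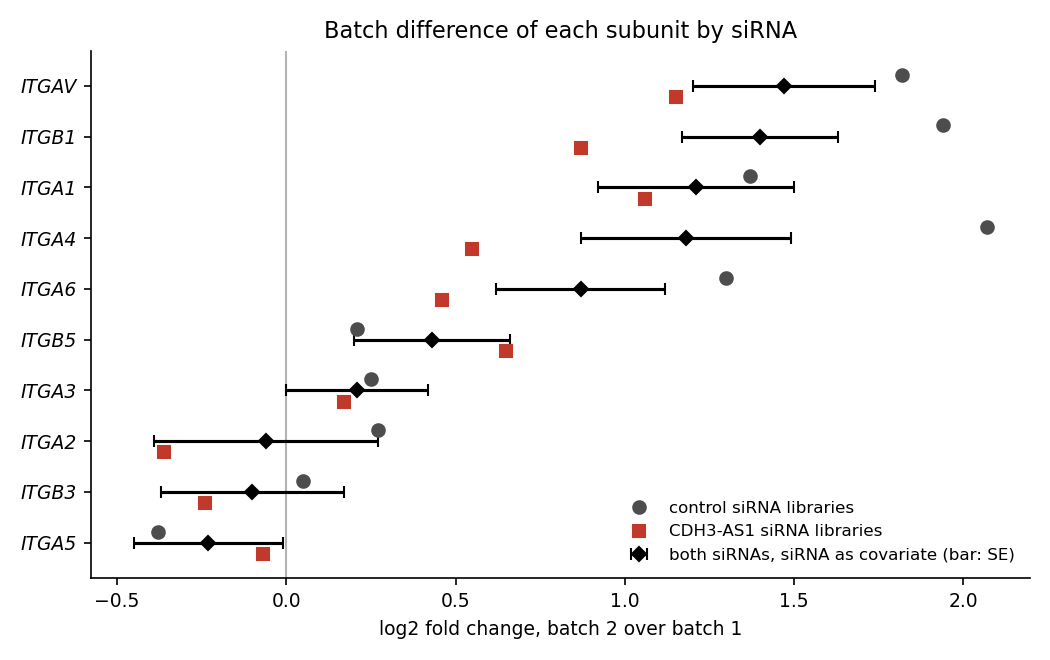
log2 fold change of each subunit, batch 2 over batch 1. Diamonds are the edgeR estimates with the siRNA as covariate (bars, SE), circles the control libraries alone and squares the CDH3-AS1 siRNA libraries alone. ITGAV, ITGB1, ITGA1, ITGA4 and ITGA6 lie to the right of 0 under both siRNAs.

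Footprints in the 5′ UTR were most numerous, summed over the libraries, in ITGB5, ITGAV and ITGA3. Of ITGB5's 5′ UTR and coding reads, 19.9% (95% Clopper-Pearson interval 17 to 23.1) and 12.5% (11.1 to 13.9) lay in the 5′ UTR in the controls, and 10.7% (9.57 to 11.9) and 15.2% (13.6 to 16.9) with CDH3-AS1 siRNA. These intervals cover counting error only. In ITGAV the shares were 13.4% and 10.5% in the controls, and 3.2% (1.87 to 5.07) and 14.7% (11.8 to 17.9) with CDH3-AS1 siRNA, so that CDH3-AS1 siRNA replicate 1 was the low library. In ITGA3 the shares followed the batch, with 3.01% and 2.58% in batch 1 and 7.3% and 7.92% in batch 2. For whole libraries the share was 6.19% and 5.13% in control siRNA replicates 1 and 2, and 3.9% and 7.21% in CDH3-AS1 siRNA replicates 1 and 2. ITGA5 had at most 0.206%, from 2 to 7 reads on a 5′ UTR of 68 bases, and ITGA1 and ITGB3 had 0 reads there. ITGA6 and ITGB1 stayed at or below 1.47%. ITGA2 ranged from 2.11% to 8.42%, from 3 to 11 reads. ITGA4 had 2.98% in control siRNA replicate 2 and 1.42% and 1.61% with CDH3-AS1 siRNA, but 19.4% in control siRNA replicate 1, from 6 reads.

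By the authors' deposited RPKM, the 5′ UTR of the main ITGB5 transcript, 365 bases long, was denser in footprints than its coding sequence in control siRNA replicate 1 (186 against 114 RPKM) and CDH3-AS1 siRNA replicate 2 (267 against 232). It was less dense in the other libraries (125 against 134 and 120 against 156). The main ITGAV transcript had 28.4 against 16.5, 78.1 against 53.9 and 84 against 36.5 deposited RPKM in control siRNA replicates 1 and 2 and CDH3-AS1 siRNA replicate 2, and the reverse, 7.64 against 21.3, in CDH3-AS1 siRNA replicate 1. Among transcripts with at least 50 coding-sequence reads and a 5′ UTR of at least 30 bases, 5.38% to 11.1% per library were denser in the 5′ UTR.

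**Figure D5:**
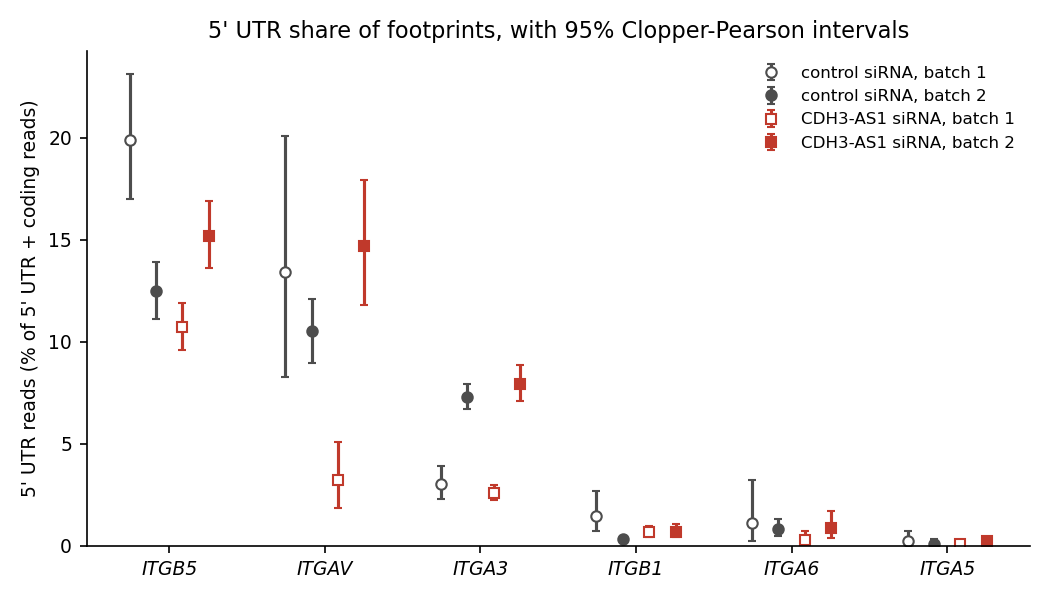
Share (%) of 5′ UTR and coding reads that lay in the 5′ UTR, for 6 subunits in each library, with 95% Clopper-Pearson intervals. ITGB5 lies between 10.7% and 19.9%, ITGA3 parts by batch, and ITGA5 is near 0 in all 4 libraries.

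Reads were spread over several transcripts in most members. The main transcript took 74.5% of the coding reads of ITGA4, 78.5% of ITGAV, 86.8% of ITGB3, 87.1% of ITGA6, 87.7% of ITGA2, 90.5% of ITGA3 and 96.2% of ITGB1. In ITGAV the transcript ENST00000696907.1 held 5.69% (2.32 to 11.4) and 2.33% (1.21 to 4.03) of coding reads in batch 1, control then CDH3-AS1 siRNA, and 18.3% (16.2 to 20.5) and 20.4% (16.8 to 24.4) in batch 2. The share thus followed the batch under both siRNAs. How the authors assigned reads that fit several transcripts is not given in the sources used here, so such shares can reflect the assignment.

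Other integrin subunits that could be measured were mostly scarce. Of 17 genes listed, 12 had any coding read. The rest (ITGA2B, ITGA8, ITGA9, ITGAL and ITGBL1) were not among the gene names, so their levels are unknown. Of the 12, 4 passed the filter on low counts, none of them called with or without the block. ITGB8, a partner of ITGAV that releases active TGF-beta, was the exception, with 165 and 256 CPM in the controls and 255 and 305 CPM with CDH3-AS1 siRNA. Its log2 fold change was 0.45 without the block (SE 0.36), with 0.66 and 0.30 in the batches. ITGA7, a laminin receptor subunit abundant in muscle, had 6.51 and 20.6 CPM in the controls and 2.84 and 22.2 CPM with CDH3-AS1 siRNA. The library with muscle markers thus stood above the other batch 1 library and below both of batch 2.

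The ligands of integrins included more genes called by edgeR with the block than the other lists. Of 32 tested, 5 were higher and 1 lower, against 1.62% of all genes called. The lists were chosen with earlier results of these data known, so this share may reflect the choice. limma on log2(RPKM + 1) with the block called 0 genes. Fibronectin, FN1, the ligand of ITGA5, had 1722 and 4324 CPM in the controls and 4407 and 6550 CPM with CDH3-AS1 siRNA. The groups did not overlap, but the higher control was close to the lower CDH3-AS1 siRNA library. Its log2 fold change was 0.90 (SE 0.51), and 1.02 (SE 0.19) with the block (edgeR adjusted p = 3.13e-05), with 1.39 and 0.65 in the batches. The batch 1 value rests on control siRNA replicate 1. That library has muscle markers and most COL1A1 and COL1A2 reads, and the part of that RNA in the value was not tested. The matricellular proteins CCN2 (1.90 with the block, SE 0.33) and CCN1 (1.31 with the block, SE 0.24) were the others named by rule. CCN1 had 112 and 446 CPM in the controls and 393 and 756 CPM with CDH3-AS1 siRNA, so its groups overlapped. Its difference was 1.84 in batch 1, against the library with muscle markers, and 0.81 in batch 2. CCN2 had 11.9 and 21.7 CPM against 76.6 and 52.1 CPM, with differences of 2.66 and 1.30 in the batches. MFGE8, which carries an RGD motif for ITGAV integrins, had 1014 and 1341 CPM against 2062 and 2209 CPM (0.91 with the block, SE 0.21, edgeR adjusted p = 0.00176). MFGE8 and the proteoglycan HSPG2 (1.00 with the block, SE 0.22) were named after their values were seen. The basement membrane linker NID1 was the lower one, with 173 and 125 CPM in the controls and 81.1 and 62.1 CPM with CDH3-AS1 siRNA (edgeR adjusted p = 0.0163 with the block). The median log2 fold change of the 32 was 0.44 without the block, with 0.36 and 0.64 in the batches.

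Of the other lists only the adaptors and kinases held called genes, with the block and against 1.62% of all tested genes. Of 19 tested activators and inhibitors 0 were called by edgeR with the block. TLN1, the talin that switches integrins on, had a log2 fold change of 0.04 with the block (SE 0.22). Of 44 adaptors and kinases 2 were called, both lower, as were 73 of all 10469 genes. LPXN, leupaxin, a relative of paxillin, had 147 and 91.9 CPM in the controls and 67.4 and 30.3 CPM with CDH3-AS1 siRNA (-1.30 with the block, SE 0.28, edgeR adjusted p = 9.27e-04). RAC1, the GTPase of lamellipodia, had 238 and 73.6 CPM against 92.9 and 44.4 CPM (-1.01 with the block, SE 0.27, edgeR adjusted p = 0.0173), and its groups overlapped. Its difference was -1.32 in batch 1, against the library with muscle markers, and -0.67 in batch 2. Of 26 membrane partners 0 were called, with a median of 0.30 without the block. The coreceptor NRP1 (0.93, SE 0.39, without the block) and the syndecan SDC2 (0.81, SE 0.51, likewise) differed most among those with at least 0.5 in both batches. Of 29 trafficking genes 0 were called, and ARRB1, an arrestin, had the largest value by the same rule (-1.04, SE 0.41, without the block). Without the block, the medians of the activators, adaptors and trafficking genes were -0.22, -0.02 and -0.09, and that of all genes -0.03.

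The genes whose 4 centred log2(CPM + 1) values lay nearest to those of ITGA5, among 7012 genes with a mean of at least 20 CPM, were FOXE1 (distance 0.147), PLK2 (0.17) and CITED2 (0.303). FOXE1, a forkhead transcription factor, had 20.6 and 16.2 CPM in the controls and 52.8 and 51.7 CPM with CDH3-AS1 siRNA. PLK2, a polo-like kinase, had 68.9 and 52.2 CPM against 141 and 131 CPM. CITED2, a transcriptional coregulator, had 101 and 69.8 CPM against 180 and 171 CPM. In each, as in ITGA5, both CDH3-AS1 siRNA libraries lay above both controls and batch 1 lay above batch 2. This shared order follows from the choice by nearness to ITGA5 and is no separate result. The likeness rests on 4 libraries.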

How the data were processed

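Ribosome footprints were sequenced from 4 Hermes 4B libraries, 2 per siRNA. Per the file headers, the authors deposited counts of reads per transcript in the 5′ UTR, coding sequence, 3′ UTR and all 3 together, RPKM values, and lengths in bases. The deposited RPKM were scaled to the library's total over all regions, as checked on the values. The submitters' processing notes name hg38 and DESeq2. Which aligner, counting tool, annotation and strand setting were used is not given in the sources used here. Without strand, antisense reads cannot be told apart.

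Coding counts were summed by gene name. RPKM of genes were computed here from those sums. Genes passing filterByExpr (minimum count 10, minimum total 15) were tested with edgeR 4.0.16 in R 4.3.3 (TMM scaling, quasi-likelihood test, prior count 2, SE from the F statistic), with Benjamini-Hochberg adjustment over all 10469 genes and a threshold of 0.05. limma 3.58.1 and DESeq2 1.42.0 were alternatives. Scripts were tested on simulated data. CPM in the text are not TMM-scaled, while log2 fold changes are.

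The labels give same-numbered libraries a shared batch, and deviations of paired libraries from the means of their groups correlated over genes (r = 0.584). The number was therefore used as a replicate block. The block fit leaves 1 residual degree of freedom per gene. Its SE and p-values therefore draw on a spread estimated over all tested genes. They do not measure how far the within-batch values of a gene agree: ITGB1, with 0.67 and -0.40 in the batches, has an SE of 0.22. Replicates differed by far more than sampling noise (chi-square per degree of freedom 44 between controls and 36.4 between CDH3-AS1 siRNA libraries).

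The members and lists were chosen with earlier results of these data known. Pathway genes were named by rule: up to 3 per list and direction past the block test with 1 direction in both batches, otherwise up to 2 that reached 5 RPKM on average and a difference of 0.5 (log2) in each batch. Symbols of all 10 members matched the GRCh38.p14 RefSeq table. Start-site sequences were found for 8, not for ITGA3 and ITGB3.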

Additional observations from a re-analysis of the deposited data

Results flagged for a closer look

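ITGB1 and ITGAV moved in opposite directions in the batches. With CDH3-AS1 siRNA over control, ITGB1 had a log2 fold change of 0.67 within batch 1 and -0.40 within batch 2, and ITGAV of 0.31 and -0.36. Each batch has 1 library per siRNA, so the difference between the batches was not tested. Control siRNA replicate 1, the batch 1 control, is the library with skeletal muscle markers (4950 CPM in sum), and the part of that RNA in the batch 1 values was not tested.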

How the results depend on the processing

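Without the block, edgeR called 0 genes and 0 members between the siRNAs. Genes and members called were 170 and 2 with the replicate block, 2 and 0 with DESeq2, 57 and 1 with DESeq2 and the block, and 52 and 0 with no filter on low counts. Alternatives chosen after seeing the data gave 172 and 2 with RLE scaling and the block, and 227 and 2 with no filter and the block. limma on log2(RPKM + 1) with the block gave 0 and 0. Leaving out single libraries gave 0 to 73 genes, 0 to 1 members (ITGA4 without control siRNA replicate 2) and a member median of 0.02 to 1.05. Without a library the batches are unbalanced, so batch differences enter. With the block and 1 library left out no residual degree of freedom remains, so that fit was not run. The same holds for leaving out libraries in the batch comparison.

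Between the siRNAs ITGA5 kept its direction under every alternative run, from 1.20 to 1.61, and ITGA4 wherever it was tested, from 0.52 to 2.57. ITGB1, at -0.10 without the block, turned to 0.13 with the block, 0.15 with DESeq2 and the block, 0.14 with RLE scaling and the block, 0.13 with no filter and the block, 0.09 and 0.10 with limma on log2(RPKM + 1) and log2(RPKM + 0.1), 0.09 with limma and the block, and to 0.27 and 1.18 when either CDH3-AS1 siRNA replicate 1 or control siRNA replicate 2 was left out (range over left-out libraries -0.74 to 1.18). ITGAV, at -0.19, turned to 0.28 and 1.00 in the same fits (range -0.88 to 1.00). Without control siRNA replicate 1, ITGA1 turned to -0.26 (range -0.39 to 1.09, the lowest without CDH3-AS1 siRNA replicate 2) and ITGA6 to -0.11 (range -0.11 to 1.16). The cause was not tested. With at least 50 reads in each library ITGA4 was not tested. Between batches 1657 genes and 5 members were called, 538 and 3 with no siRNA covariate (no replicate block) and 694 and 4 with DESeq2. The depth limit was 3 reads, which the members exceeded in all libraries, with 25 reads as their lowest count.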

Other observations

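Those subunits of leukocyte integrins that had reads were scarce in these cultures, and ITGAL was not among the gene names. ITGAX had 2.71 and 4.44 CPM in the controls and 0.63 and 1.15 CPM with CDH3-AS1 siRNA. Both CDH3-AS1 siRNA libraries lay below both controls, as for 16.1% of all tested genes, and the difference of -1.63 (log2, SE 0.65) did not pass (edgeR adjusted p = 1). The 1.15 CPM in CDH3-AS1 siRNA replicate 2 equalled the limit of 3 reads in that library. ITGAE, a partner of ITGB7 that binds E-cadherin, had 6.57 CPM in control siRNA replicate 2 and 5.04 and 6.9 CPM with CDH3-AS1 siRNA, and 0 reads in control siRNA replicate 1.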
